A study of Rattus norvegicus with 4 samples.

Results

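The brain makes and breaks down its own steroids, which are called neurosteroids. Cholesterol is carried into mitochondria with the help of Star and Tspo, and Cyp11a1 cleaves its side chain to give pregnenolone, the precursor of the steroid hormones. Later enzymes turn this precursor into estrogens (Cyp19a1, aromatase), reduced neuroactive steroids (Srd5a1), active glucocorticoids (Hsd11b1), oxidised estrogens and androgens (Hsd17b10) and hydroxylated steroids (Cyp7b1). Aromatase is known to appear in reactive astrocytes after brain injury, and Tspo is widely used as a marker of activated microglia and reactive astrocytes.

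These 8 genes were examined in rat cortex after an experimental stroke. Members were all probe sets, other than control probe sets, whose only gene symbol in the platform annotation was 1 of the 8. There were 8 such probe sets among 8740, for 7 of the 8 genes. Star had 2 probe sets, and Tspo, Cyp11a1, Cyp19a1, Hsd11b1, Hsd17b10 and Cyp7b1 had 1 each. No probe set carried Srd5a1 as its only symbol, and Srd5a1 was not analysed here.

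All animals were ovariectomised female rats, and in all of them the middle cerebral artery was closed from inside the vessel for 2 h and then reopened. One group had received 17beta-estradiol replacement and the other placebo. The dose, strain and age are not given in the sources used here. Each group had 2 Affymetrix arrays (array A of the rat U34 set) of cortex on the stroke side, each hybridised with the pooled RNA of 3 animals, so 6 animals stood behind each group. Pools are named by treatment and replicate number, such as estradiol 1. The design text names 6 and 24 h after the occlusion as sampling times, and the titles of these 4 arrays carry codes with a 6, whose meaning is not explained in the labels.

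Each value is a linear intensity per probe set, scaled by the authors to a common level on every array. The background of each array was taken as its brightest foreign control, out of 23 controls against transcripts of bacteria, yeast and mouse. This level was 33.9 for estradiol 1, 37.8 for estradiol 2, 37.8 for placebo 1 and 30.1 for placebo 2. Anything not brighter than that is called at background on the array. Of all 8740 probe sets, 51.1% lay above it on all 4 arrays and 28.4% on none. Values are compared within a probe set only, since probe sets differ in how brightly they hybridise. As a measure of RNA integrity and labelling, 3' over 5' signal was 3.08 to 4.35 for the hexokinase control, highest in estradiol 2, 1.28 to 1.58 for beta-actin and 1.30 to 1.45 for GAPDH. Neuron markers were above background on all 4 arrays for 7 of 9 measured genes. Slc17a7, the vesicular glutamate transporter gene of cortical excitatory neurons, was at background on every array, at 7.0 to 12.1. Choroid plexus and meninges markers differed within both groups, with summed intensities of 2437 for estradiol 1, 7008 for estradiol 2, 13010 for placebo 1 and 1400 for placebo 2. Transthyretin (Ttr) carried most of the difference between these sums, at 165.3, 4312, 8034 and 74.3 in that order, while Igfbp2 and Kl were brighter in estradiol 1 than in estradiol 2. Sums of blood markers were 1872 and 4249 in the estradiol pools, against 6173 and 5319 in the placebo pools, and those of vascular markers 784.8 and 783.1 against 1152 and 912.8. Oligodendrocyte sums were 16350 and 12390 against 20390 and 13090, and neutrophil sums 325.5 and 195 against 344.7 and 217.8. These tissue differences run beside every member value below, and their part in it was not tested.

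Of the 8 probe sets, 4 lay above background on all 4 arrays, those of Tspo, Hsd11b1, Hsd17b10 and Cyp7b1. Both Star probe sets and that of Cyp11a1 were at background on every array, and Cyp19a1 was above it on 1 array. Cyp7b1 had the largest difference between treatments among the 4 detected genes and was higher in both estradiol pools than in both placebo pools. No difference among them passed the threshold after adjustment.

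**Figure D1:**
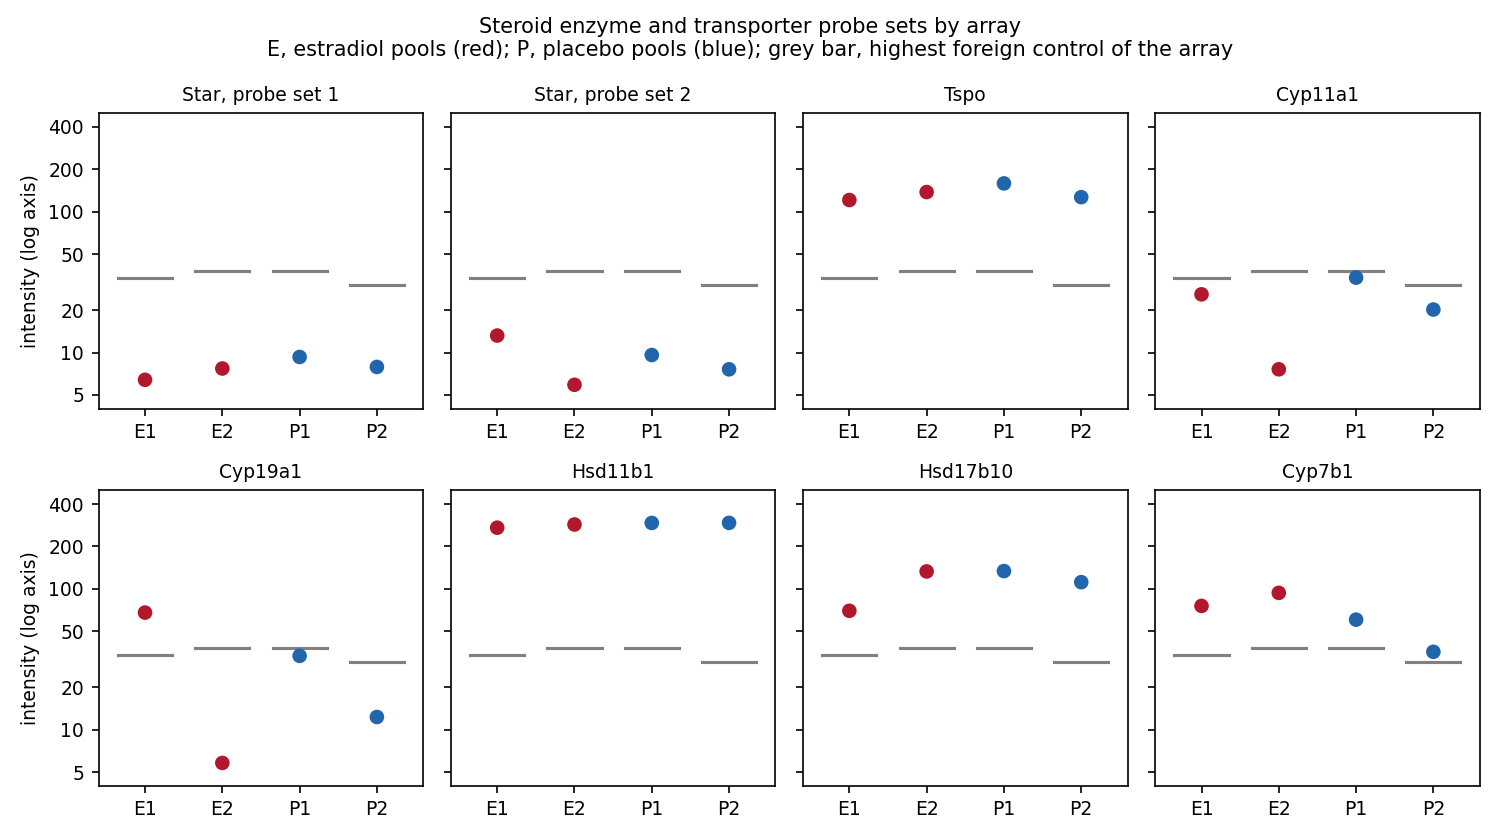
Intensity (log axis) of each of the 8 probe sets on the 4 arrays, with estradiol pools 1 and 2 (E1, E2) in red and placebo pools 1 and 2 (P1, P2) in blue. Grey bars mark the highest foreign control of each array. Tspo, Hsd11b1, Hsd17b10 and Cyp7b1 lie above the bar on all 4 arrays, and Cyp19a1 lies above it in estradiol 1 alone.

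Star, the protein that carries cholesterol to the inner mitochondrial membrane, gave no signal above background. Its first probe set stood at 6.4 and 7.7 under estradiol, against 9.3 and 7.9 under placebo. The other stood at 13.2 and 5.9 under estradiol, against 9.6 and 7.6 under placebo. On the log2 scale these 8 values lay between 1.36 and 2.68 below the highest foreign control of their array, and within 0.89 of the median foreign control. No fold is given for Star, because both groups were at background.

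Tspo, the outer mitochondrial membrane protein that binds cholesterol, was detected on every array. It stood at 121.1 and 137.9 under estradiol, against 158.9 and 126.9 under placebo. These values lay between 1.84 and 2.08 above the highest foreign control on the log2 scale. The groups overlapped, and the highest value belonged to placebo 1. The mean was 129.5 ± 11.9 (SD, n = 2) under estradiol, compared with 143 ± 22.6 (SD, n = 2) under placebo. The log2 difference was -0.12 ± 0.23 (SE), with a 95% interval from -0.66 to 0.42. It was 0.02 without placebo 1, so its sign rested on that pool. Fewer cells of a type and less RNA per cell cannot be told apart in pooled tissue. Placebo 1 also had the highest sum of the 9 measured microglia and macrophage markers, 1345, against 1040 and 1146 with estradiol and 1083 in placebo 2. Of these markers, 6 lay above background on all 4 arrays, while Itgam and Csf1r were at background on every array. Lyz2 carried most of the excess in placebo 1, at 513.6 against 285.6 and 253.6 with estradiol and 257.9 in placebo 2. Among those 6, Cd74 was also brightest in placebo 1, while C1qb, C1qc and Fcgr2b were brightest in an estradiol pool and Ptprc in placebo 2. The sum of the 7 measured astrocyte markers was likewise highest in placebo 1, at 12120, against 11360 in placebo 2 and 11040 and 10820 with estradiol. Of the astrocyte markers, S100b, Slc1a3 and Glul were brightest in placebo 1. Aldoc and Aqp4 were brightest in an estradiol pool, and Slc1a2 and Gja1 in placebo 2. The part of microglia, macrophages and astrocytes in the Tspo values was not tested.

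Cyp11a1, the side-chain cleavage enzyme that starts steroid synthesis, was at background on all 4 arrays. It stood at 25.9 and 7.6 under estradiol, against 34 and 20.2 under placebo. Placebo 1 came closest to the highest foreign control, 0.15 below it on the log2 scale, and estradiol 2 was farthest, 2.31 below it. Against the median foreign control, Cyp11a1 lay 1.87 above in estradiol 1, 2.02 above in placebo 1 and 0.52 above in placebo 2. In estradiol 2 it lay 0.31 below that median. The pools of each group differed widely, and no fold is given.

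The DNA before the start of Cyp11a1 and of Hsd17b10 is shown for comparison. The first gene was at background on every array, and the other was detected on every array. Of the 8 genes, 3 were matched by symbol in the RefSeq promoter table (build GRCr8), Cyp11a1, Hsd17b10 and Srd5a1. Each window holds the 250 bases before the annotated start, read 5′ to 3′ on the plus strand. The Cyp11a1 window is chr8:67318415-67318664 and the Hsd17b10 window chrX:24568301-24568550. Capitals mark matches on either strand to 4 motifs, the palindromic estrogen response element GGTCANNNTGACC, the nuclear receptor half-site AGGTCA, the CCAAT box and the GC box GGGCGG. The half-site shares its last 5 letters with the first arm of the estrogen response element.
Cyp11a1: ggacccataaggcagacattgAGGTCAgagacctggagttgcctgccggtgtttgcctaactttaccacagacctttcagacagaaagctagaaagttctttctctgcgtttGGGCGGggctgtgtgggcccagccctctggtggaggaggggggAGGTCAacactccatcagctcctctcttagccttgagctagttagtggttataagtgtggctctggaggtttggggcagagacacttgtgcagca
Hsd17b10: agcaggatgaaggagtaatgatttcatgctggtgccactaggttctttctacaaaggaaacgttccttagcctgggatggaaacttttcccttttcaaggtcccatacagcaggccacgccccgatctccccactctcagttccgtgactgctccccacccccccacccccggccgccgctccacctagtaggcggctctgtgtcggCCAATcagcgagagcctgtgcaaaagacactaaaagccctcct
The Cyp11a1 window held 2 half-sites, whose first bases lay 229 and 95 bases before the start, and 1 GC box. The Hsd17b10 window held 1 CCAAT box, with its first base 43 bases before the start, and no match to the other 3 motifs. Neither window held the palindromic element. Of all 33469 windows of this length in the table, 14.1% held the half-site, 34% the CCAAT box, 30.5% the GC box and 0.024% the palindromic element. These are matches of letters, and binding was not measured here.

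Cyp19a1, the aromatase that makes estradiol from testosterone, was detected on a single array. It stood at 67.8 and 5.8 under estradiol, against 33.4 and 12.3 under placebo. Estradiol 1 lay 1.0 above the highest foreign control on the log2 scale and estradiol 2 lay 2.70 below it, so the pools of 1 treatment held both the highest and the lowest value. Both placebo pools were at background, by 0.18 and 1.29. Among all probe sets, 7.2% were likewise above background on exactly 1 array. The probe set was not tested, because its mean of 29.8 lay below the limit of 37.5 set for testing, and no fold is given. Of the members above that limit, Cyp7b1 was the closest to it, with a mean of 66.3.

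Hsd11b1 regenerates active glucocorticoid from its inert form. It stood at 271.7 and 286.3 under estradiol, against 293.6 and 294.1 under placebo, between 2.92 and 3.29 above the highest foreign control on the log2 scale. Both placebo values lay above both estradiol values, by a narrow margin. The mean was 279 ± 10.3 (SD, n = 2) under estradiol, compared with 294 ± 0.354 (SD, n = 2) under placebo. The log2 difference was -0.07 ± 0.20 (SE), with a 95% interval from -0.54 to 0.40, which corresponds to 0.688-fold to 1.32-fold. The placebo pools were nearly equal, and only 1.7% of tested probe sets had a smaller spread within groups than Hsd11b1. With 1 array left out the value lay between -0.11 and -0.04.

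Hsd17b10 is a mitochondrial dehydrogenase that oxidises estradiol and other steroids and also takes part in isoleucine breakdown. It stood at 69.8 and 132.9 under estradiol, against 133.7 and 111.5 under placebo. Estradiol 1 was low and the other 3 pools were alike, so the groups overlapped. The mean was 101 ± 44.6 (SD, n = 2) under estradiol, compared with 123 ± 15.7 (SD, n = 2) under placebo. The log2 difference was -0.29 ± 0.31 (SE), with a 95% interval from -1.01 to 0.43. Without estradiol 1 it was 0.11, and without estradiol 2 it was -0.69. The difference between the estradiol pools, 0.80 on the log2 scale, exceeded that between the treatments.

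Cyp7b1 adds a hydroxyl group to dehydroepiandrosterone, pregnenolone and side-chain oxysterols, some of which bind estrogen receptors. It stood at 75.6 and 93.6 under estradiol, against 60.4 and 35.7 under placebo. Both estradiol values exceeded both placebo values, and placebo 2 was the lowest, 0.25 above the highest foreign control on the log2 scale against 0.68 to 1.31 in the other 3 pools. The mean was 84.6 ± 12.7 (SD, n = 2) under estradiol, compared with 48.0 ± 17.5 (SD, n = 2) under placebo, a ratio of 1.76. The log2 difference was 0.67 ± 0.31 (SE), with a 95% interval from -0.06 to 1.40, or 0.962-fold to 2.64-fold. The unadjusted p in limma was 0.0659 and the Benjamini-Hochberg adjusted p was 0.998. A difference at least as large in either direction was found for 4.7% of tested probe sets. The value was 0.39 without placebo 2 and 0.96 without placebo 1. Striatum markers had higher sums in the same pools, 2849 and 2673 with estradiol against 1927 and 2048 with placebo. Most of that difference came from Penk and Tac1, and of 9 tested striatum markers 6 had log2 differences above 0 and 3, Pdyn, Adora2a and Chat, below. Of the 10 measured, 8 lay above background on all 4 arrays and Drd2 on none. Rgs9, counted among the 6 above 0, exceeded background in estradiol 2 alone, at 146.4. It passed the limit set for testing only through that pool, so its place among the 6 rests on the value that admitted it. Neuron markers had sums of 6048 and 6448 with estradiol and of 4994 and 7671 with placebo. The part of tissue composition in the Cyp7b1 values was not tested.

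**Figure D2:**
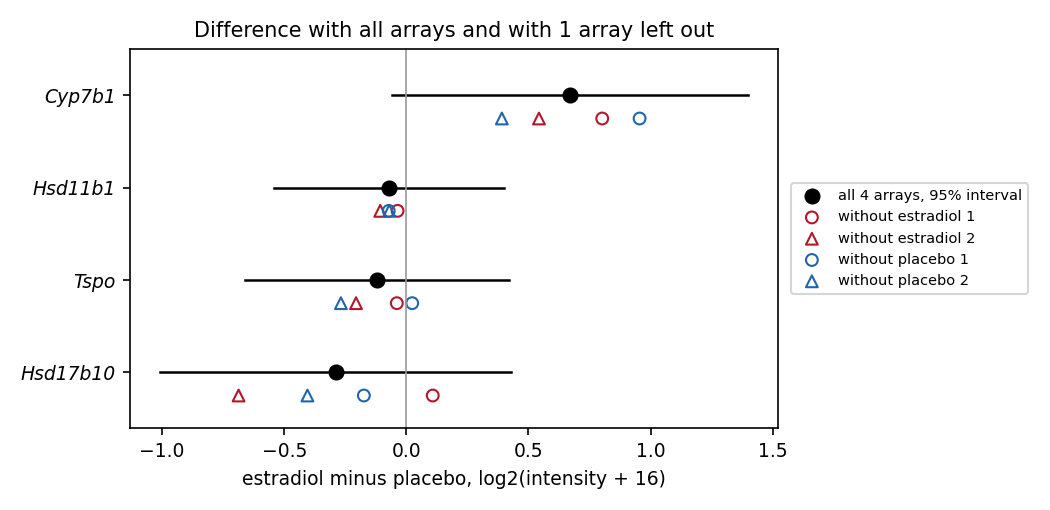
Estradiol minus placebo difference on the log2(intensity + 16) scale (x axis) for the 4 detected genes (y axis). Black points are the values with all 4 arrays with 95% intervals from limma, and open symbols are the values with 1 array left out. All 4 intervals include 0, and the values without 1 array lie on both sides of 0 for Hsd17b10 and Tspo.

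In limma, fitted over all probe sets that passed the intensity limit, 0 of the 4 tested genes passed an adjusted p of 0.05. The background was 0 of 5244 probe sets, or 0%. At an unadjusted p below 0.05 the count was also 0 of 4, against 161 of 5244, or 3.07%. Groups that did not overlap were found for 2 of the 4 genes, Cyp7b1 as higher and Hsd11b1 as lower, where 29.7% of all tested probe sets had such groups. The count of 4 is too small for a share to be read against that background. The median log2 difference of the 4 tested probe sets was -0.10, with 1 above 0 and 3 below, and that of all tested probe sets was 0.01. The other 4 probe sets were too dim to be tested, so this median does not describe all members. The adjusted p in limma was 0.998 for each of the 4 genes.

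The 3 genes whose pattern over the 4 arrays was most like that of Cyp7b1 were Tspan3, a tetraspanin, Col5a2, a fibrillar collagen chain, and Hspa5, an endoplasmic reticulum chaperone. Likeness was measured as the distance between the 4 centred log2 values, over 4326 other named probe sets, and was 0.10, 0.15 and 0.18 for these genes. Tspan3 stood at 1624 and 1887 under estradiol, against 1426 and 874 under placebo. Hspa5 stood at 656 and 823 under estradiol, against 636 and 365.5 under placebo. In each of them, as in Cyp7b1, placebo 2 was the lowest pool and estradiol 2 the highest. With 4 arrays many probe sets share an order of values, and nothing is said of shared function. The Col5a2 probe set, at 55.0 and 60.6 under estradiol, against 37.6 and 24.5 under placebo, was at background in both placebo pools.

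Other genes of steroid metabolism were listed by step, and 44 of the 75 listed genes had a probe set of their own. Where a gene had several, the brightest on average stood for it. Of these 44, 17 were above background on all 4 arrays and 14 on none, and 23 were tested. In limma 0 of the 23 passed the adjusted threshold in either direction, and 2 had an unadjusted p below 0.05, where the background was 3.07% of all tested probe sets. Those 2 were Sult2a6 and Akr1d1. Sult2a6 passed the intensity limit only through its estradiol pools, so the count is not read against that share. There were 11 log2 differences above 0 and 12 below, with a median of -0.08. Groups did not overlap in 10 of the 23, 5 as higher and 5 as lower with estradiol, where the background over all tested probe sets was 29.7%. Sult2a6 and Hsd17b6 are among these 10. Each passed the intensity limit only through 1 group, so this count is not read against that share either. The split of 5 and 5 also depends on the probe set that stood for a gene. Akr1c3 counted as higher, but its other probe set was lower, at 55.7 and 69.2 under estradiol, against 74.2 and 86.7 under placebo. Cyb5a counted as overlapping, but another of its probe sets was higher in both estradiol pools.

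The steps next to the undetected enzymes differed in detection. By their brightest probe sets, all 4 measured genes of cholesterol delivery and all 3 measured electron donors were above background on every array. The other probe set of Scp2, a cholesterol delivery gene, was at background on every array. Of the 4 measured genes listed as adrenal-type synthesis, none was above background on all 4 arrays. These were Cyp17a1, Hsd3b5, Cyp21a1 and Cyp11b2. No other listed Hsd3b gene had a probe set of its own. Nr5a1, the nuclear receptor that drives Cyp11a1 in steroid-making glands, stood at 15.4 and 16.7 under estradiol, against 20.3 and 33.9 under placebo, above background in placebo 2 alone. These genes, and those of the next sentences, were singled out after their values were seen, as partners of the enzymes above. Fdx1, the ferredoxin that passes electrons to Cyp11a1, stood at 71.5 and 94.7 under estradiol, against 68.2 and 71.7 under placebo, a log2 difference of 0.20 ± 0.27 (SE), and its other probe set was at background. Por, the reductase that serves Cyp7b1 and Cyp19a1, stood at 465.4 and 391.6 under estradiol, against 467.2 and 475.9 under placebo. Its log2 difference was -0.14 ± 0.20 (SE), and -0.31 in each of its other probe sets. Dbi, a peptide ligand of Tspo, stood at 254.6 and 285.5 under estradiol, against 279.4 and 313.1 under placebo, and the groups overlapped.

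The highest log2 differences among the 23 other tested steroid genes belonged to Sult2a6, a sulfotransferase of hydroxysteroids and bile acids, and Akr1d1, which reduces the double bond of the steroid A ring. Sult2a6 stood at 67.0 and 47.3 under estradiol, against 15.7 and 20.5 under placebo. Neither placebo pool exceeded background, which gives a level at least 1.67-fold higher with estradiol (limma adjusted p = 0.998). The mean of this probe set over the 4 arrays, 37.6, barely passed the limit of 37.5 set for testing. It passed only through the estradiol pools, so its place as the highest of the 23 rests on the same values that admitted it. The name of that probe set marks it as shared by a family of similar transcripts, and its other probe sets stood at 34.1 and 48.5 against 9.3 and 28.8 and at 15.4 and 12.5 against 19.6 and 13.9. Akr1d1 stood at 100.3 and 96.2 under estradiol, against 70.3 and 26.2 under placebo, a log2 difference of 0.92 ± 0.37 (SE) that was 0.40 without placebo 2, the pool in which it was at background, and 1.44 without placebo 1. Its other probe set was at background on every array.

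The lowest log2 differences among the 23 belonged to Hsd17b6, which oxidises androgen metabolites, and Ugt2b7, a glucuronosyltransferase. Hsd17b6 stood at 48.8 and 19.1 under estradiol, against 68.3 and 54.6 under placebo, a log2 difference of -0.69 ± 0.40 (SE). It was -0.25 without estradiol 2, the pool at background, and -1.14 without estradiol 1. Ugt2b7 stood at 47.9 and 35.7 under estradiol, against 83.0 and 44.6 under placebo, a log2 difference of -0.43 ± 0.36 (SE) that was -0.08 without placebo 1 and -0.78 without placebo 2. Neither passed the adjusted threshold in limma.

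**Figure D3:**
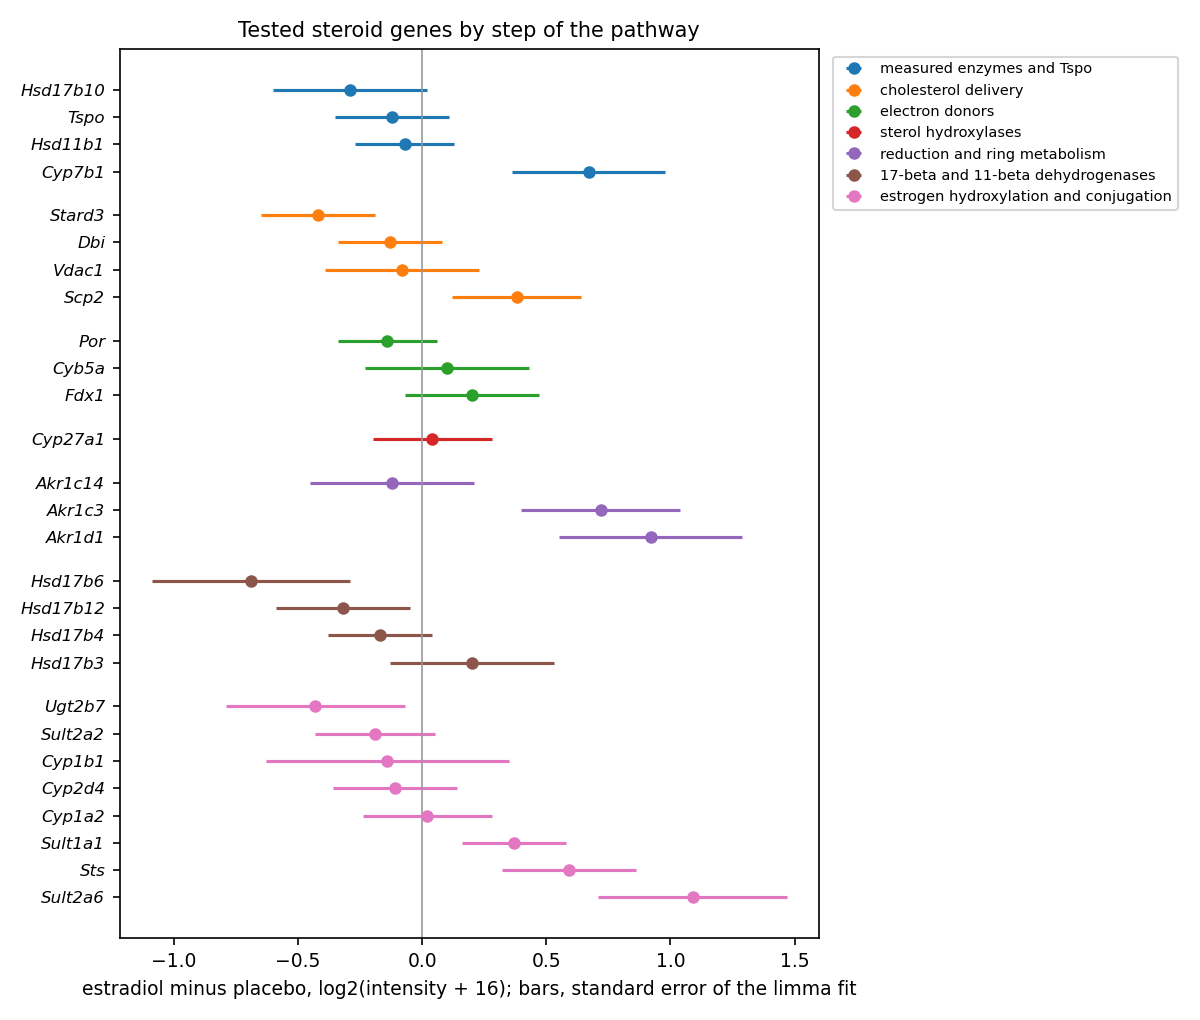
Estradiol minus placebo difference on the log2(intensity + 16) scale (x axis) for the 4 tested genes described first and the 23 other tested steroid genes (y axis), coloured by step. Points are limma estimates with all 4 arrays and bars are their standard errors. Values lie on both sides of 0, from -0.69 for Hsd17b6 to 1.09 for Sult2a6, and none passed the adjusted threshold.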

How the data were processed

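Affymetrix rat arrays (array A of the U34 set) were hybridised with biotin-labelled cRNA of pooled RNA, per the series design text. The authors deposited linear intensities, 1 for each probe set on each array, whose trimmed means lay between 150.18 and 150.20, so arrays had been scaled. The program and version behind them are not given in the sources used here. Removing 59 control probe sets from 8799 rows left 8740. Platform annotation gave 7006 probe sets 1 symbol, 308 several and 1426 none. Names were checked in a RefSeq table of GRCr8, used for names alone.

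Intensities were transformed as log2(value + 16), which understates changes of dim probe sets. The 5244 probe sets with a mean at or above the 40th percentile, 37.5, were tested with limma 3.58.1 in R 4.3.3 (two-sided lmFit and eBayes fit, trend on intensity, Benjamini-Hochberg over all tested, threshold 0.05). The fit had 2 residual and 5.63 prior degrees of freedom, and the number of arrays limits the precision. The fitting code was checked on simulated data with large changes in bright probe sets only. That check does not cover changes as small, or probe sets as dim, as those of the members. Tables and plots used Python 3.11.15, pandas 2.3.3 and matplotlib 3.10.9. A bound for a probe set at background in 1 group raises each array of that group to its highest foreign control.

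Members and lists were chosen with earlier results of these data known. All member probe sets are named, with the 2 highest and 2 lowest log2 differences among other steroid genes and the 3 probe sets nearest in pattern to the member of smallest p. The lists of cell type markers covered blood, choroid plexus and meninges, vessels, striatum, neurons, oligodendrocytes, astrocytes, neutrophils, and microglia with macrophages. The closing section gives the effect of other offsets, filters, normalisations, a background floor, no trend, a replicate block and leaving out each array.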

Additional observations from a re-analysis of the deposited data

How the results depend on the processing

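No probe set passed the adjusted threshold in limma under any of the 13 alternative settings, with 0 calls over the whole table, 0 among members and 0 among the other steroid genes. The number of probe sets at an unadjusted p below 0.05 was 161, and it was 337 without the intensity filter, where 8740 were tested, and 89 under a stricter filter at the 60th percentile, which also removed Cyp7b1. With 1 array left out it lay between 146 and 224. Over offsets of 1 and 64, quantile normalisation, median centring and the background floor, the log2 difference lay between 0.41 and 0.86 for Cyp7b1, -0.10 and -0.06 for Hsd11b1, -0.34 and -0.20 for Hsd17b10 and -0.155 and -0.09 for Tspo. The filters, where they kept a probe set, and the trend change its p and not its difference. With 1 array left out the log2 difference lay between 0.39 and 0.96 for Cyp7b1, -0.11 and -0.04 for Hsd11b1, -0.69 and 0.11 for Hsd17b10 and -0.27 and 0.02 for Tspo. The positive values were 0.11 for Hsd17b10 without estradiol 1 and 0.024 for Tspo without placebo 1. The members' median lay between -0.17 and 0.04. The labels give both groups the replicate numbers 1 and 2 without saying what they share, and same-numbered arrays had a correlation of deviations of 0.036. With the number as a replicate block there were 210 probe sets at an unadjusted p below 0.05 and 0 calls, and the unadjusted p of Cyp7b1 in limma was 0.0808 in place of 0.0659. Without a block, that limma p was 0.0495 with the background floor and 0.049 without the trend, both just below 0.05. The adjusted p of Cyp7b1 in limma was then 0.9989 and 0.9978. In this balanced design the block cannot change a difference itself.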
